A study of Mus musculus with 8 samples.

Results

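Desmosome genes were followed in RNA sequencing of preSCs, cultured mouse cells that serve as a precancerous model of neuroendocrine lung cancer. The 10 genes were taken from a list and matched by symbol among the 23284 genes of the count files, and all 10 were found. They were Dsp and Ppl (plakins), Jup, Pkp1, Pkp2 and Pkp3 (armadillo proteins) and Dsg2, Dsg3, Dsc2 and Dsc3 (desmosomal cadherins). The list was selected on the difference in library-scaled counts between the Max KO and control libraries described here. For that reason the differences of the members are given as a description, without p-values of their own.

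All cells derived from a Chga-GFP mouse with Rblox/lox, p53lox/lox and p130lox alleles on a mixed 129/SvJ and C57BL/6 background, so the control cells carry these alleles too. The 4 Max KO libraries came from polyclonal populations that had received an sgRNA against Max, and the 4 control libraries from populations that had received a control sgRNA. Both were selected with puromycin and expanded, without further treatment. MAX is the partner through which the MYC proteins and several repressors bind DNA. The populations were not cloned, so cells without a Max mutation can be present in them, and the labels give no age of the mice. Whether the 4 libraries of each group were grown separately is also not given, so p-values cover library-to-library spread alone, part of which may be technical.

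Libraries held 13711278 to 19804949 reads counted in genes, so that 3 reads, the limit that a count of 0 allows, correspond to 0.151 to 0.220 CPM (library-scaled read counts, counting error only). Max mRNA was at 42.3, 42.3, 59.1 and 68.0 CPM in Max KO libraries 1 to 4 and at 61.9 to 75.2 CPM in the controls. The log2 fold change of -0.37 (SE 0.15) did not reach an adjusted p under 0.05 (edgeR adjusted p = 0.0955). It did so in 1 of 18 alternatives, without Max KO library 4 (-0.52, edgeR adjusted p = 0.0228). Library 4 of the Max KO group lay within the control range, and since small insertions and deletions need not lower a transcript, this is a weak check of the labels. Neuroendocrine markers were abundant, with all 10 listed genes measured and summed levels of 7573 to 8130 CPM in the Max KO and 6957 to 8905 CPM in the control libraries. Of these 10, 1 rose and 2 fell. Chgb, a secretory granule protein gene, fell by 0.37 on the log2 scale (SE 0.07, edgeR adjusted p = 0.00183) and kept its call in all 18 alternatives. Resp18 fell by 0.53 and Uchl1 rose by 0.41, but these calls ended in 10 and 11 of the 18 alternatives, and the part of these markers in the results was not tested. Reads outside annotated exons made up 20.5% to 21.5% in the Max KO libraries, 18.5% and 18.6% in controls 1 and 2 and 23.3% and 23.4% in controls 3 and 4. Controls 1 and 2 were close to each other (chi-square of their counts 4.75 per degree of freedom), whereas every other pair of controls differed more (24.8 to 37.7), and the Max KO pairs lay between 3.86 and 9.82. For the 7 members that could be tested, the difference is therefore also given against each of these pairs of controls, 1 and 2 or 3 and 4.

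Desmosomes are spot-like junctions that rivet neighbouring epithelial or heart muscle cells to each other. Desmogleins and desmocollins, which are cadherins, bind across the gap between cells. Inside the cell their tails bind plakoglobin (Jup) and the plakophilins, which in turn bind desmoplakin (Dsp), and desmoplakin holds the keratin filaments. In simple epithelia Dsg2 and Dsc2 are the usual cadherins, whereas Dsg3, Dsc3 and Pkp1 are best known from stratified epithelia such as the epidermis.

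Among the members, the genes for both plakins and both measured plakophilins were higher in the Max KO libraries. The differences of Jup and the measured cadherins were smaller and did not pass the test. Whether the members differed from each other in this was not tested. Of relatives outside the member list, described below, the plakin gene Evpl rose (log2 fold change 0.46) and the plakophilin relative Pkp4 did not pass the test (-0.03). Of the 7 members that passed the filter on low counts, 4 passed the threshold, all upward. These were Dsp (2.16-fold), Pkp3 (1.81-fold), Ppl (1.75-fold) and Pkp2 (1.31-fold). Jup, Dsg2 and Dsc2 did not pass it, and Dsc3, Dsg3 and Pkp1 had at most 3 reads in any library and were not tested. The threshold was an adjusted p under 0.05 in edgeR's quasi-likelihood test over all 13358 tested genes, of which 23.1% passed it, 10.9% upward (1457 genes) and 12.2% downward (1627 genes). With upper-quartile scaling the split was 1160 upward and 1965 downward, and the same number of members, 4, passed upward. The median log2 fold change was 0.39 over the 7 members and 0.00 over all tested genes. Since the members were chosen with this contrast known, nothing is read from their share.

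Desmoplakin, the plakin that ties the plaque to keratin filaments, showed the largest difference of the 7. Dsp was at 461, 509, 455 and 422 CPM in Max KO libraries 1 to 4 and at 173, 162, 207 and 312 CPM in controls 1 to 4. All 4 Max KO values lay above all 4 controls, but control 4 stood well apart from the other controls and the lowest Max KO library exceeded it only 1.35-fold. The means were 462 ± 35.9 and 213 ± 68.3 CPM (SD, n = 4 each), which is 1.11 on the log2 scale (SE 0.18). Without control 4 the difference was 1.35 on the log2 scale (SE 0.10). It was 1.46 (2.75-fold) with only controls 1 and 2 kept and 0.82 (1.77-fold) with only controls 3 and 4 kept.

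The sequence before the Dsp start is shown because this gene carried the largest difference, and that of Jup because its difference was small. Of the 10 members, these 2 had an entry in the RefSeq promoter table (GRCm38.p6, a later build than the mm9 of the counts). Each line gives the 250 bases before the annotated start, 5′ to 3′ on the gene's own strand, with CG pairs in capitals. The Dsp stretch is chr13:38151044-38151293 on the plus strand and the Jup stretch is chr11:100397791-100398040 on the minus strand.
Dsp: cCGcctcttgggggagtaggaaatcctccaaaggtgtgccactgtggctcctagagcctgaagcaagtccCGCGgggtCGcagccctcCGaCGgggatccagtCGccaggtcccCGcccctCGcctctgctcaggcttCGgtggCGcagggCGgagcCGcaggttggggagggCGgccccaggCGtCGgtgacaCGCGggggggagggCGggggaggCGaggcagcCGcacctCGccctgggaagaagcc
Jup: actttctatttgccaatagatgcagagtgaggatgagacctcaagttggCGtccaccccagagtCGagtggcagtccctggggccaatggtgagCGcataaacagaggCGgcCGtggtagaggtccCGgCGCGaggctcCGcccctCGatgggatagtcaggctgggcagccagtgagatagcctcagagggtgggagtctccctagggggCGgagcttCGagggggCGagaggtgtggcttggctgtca
The Dsp stretch held 22 CG pairs and the Jup stretch 13. Over the full window of 300 bases, which runs to 50 bases after the start, the GC content was 73.0% for Dsp and 60.7% for Jup, and the median of all 32851 promoters was 52.7%. The window was searched on both strands for CACGTG (the E-box bound by MYC-MAX), CACCTG (an E-box bound by SNAI and ZEB proteins) and AACCGG (part of the motif of Grainyhead-like factors). No stretch of letters can match more than 1 of these motifs. They occurred in 7.15%, 20.2% and 6.83% of all promoters. The Dsp window held 1 match, to CACCTG on the opposite strand, starting 4 bases into the transcript, and the Jup window held none of the 3. The match is in capitals in the 30 bases from 10 before to 20 after the Dsp start.
Dsp start: ggaagaagccgacCAGGTGtggcctgggcg
A match is a description of the letters and not evidence of binding, and no match says only that these letters are not in this window.

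Periplakin (Ppl), a plakin of the desmosomal plaque and of the cornified envelope, was at 87.4, 94.2, 86.9 and 95.9 CPM in Max KO libraries 1 to 4 and at 47.5, 44.0, 50.3 and 66.6 CPM in controls 1 to 4. The groups did not overlap, and control 4 was again the highest control. The means were 91.1 ± 4.61 and 52.1 ± 10.04 CPM (SD, n = 4 each), with a log2 fold change of 0.81 (SE 0.12). It ranged from 0.63 with only controls 3 and 4 kept to 0.99 with only controls 1 and 2 kept.

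**Figure D1:**
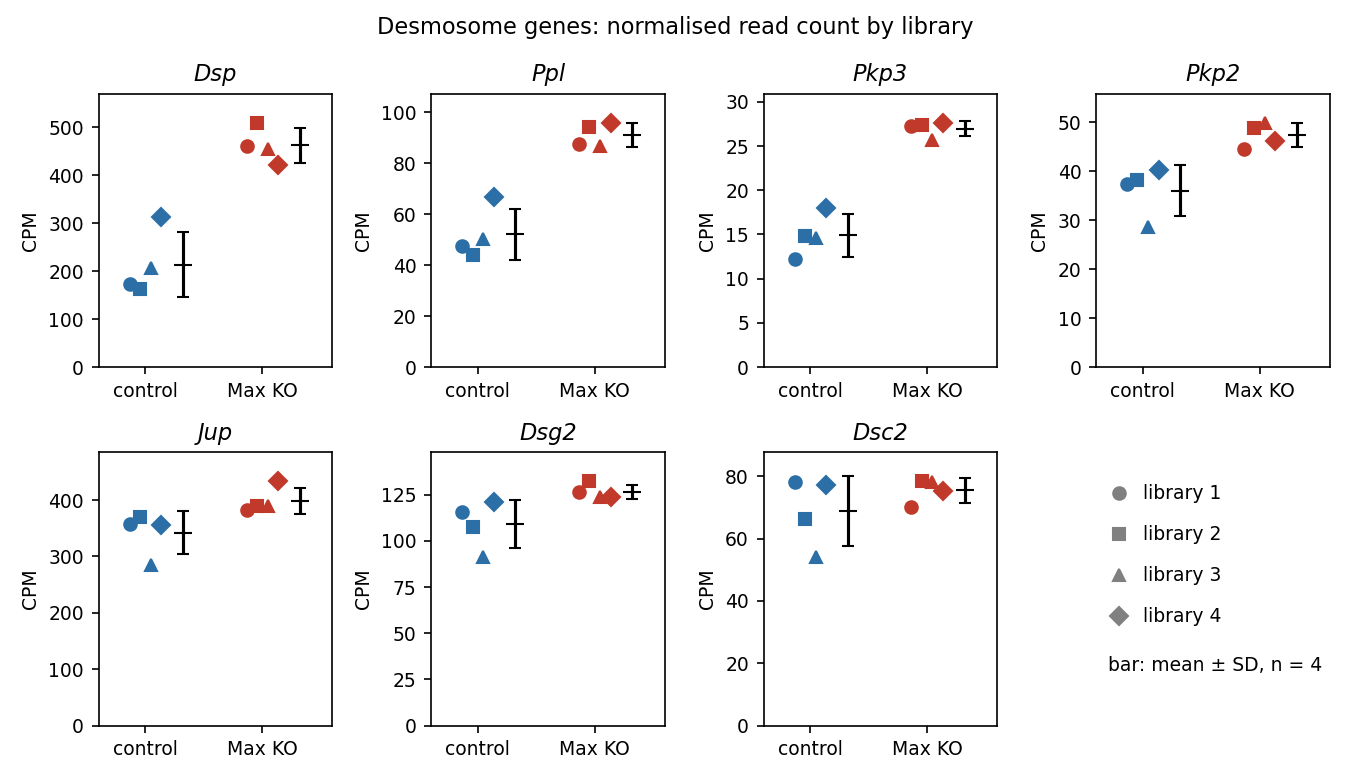
Normalised read counts (CPM, y axes starting at 0) of the 7 desmosome genes that passed the filter, in 4 control and 4 Max KO libraries (symbols mark the library number, bars the mean ± SD). All 4 Max KO libraries lie above all controls for every gene shown except Dsc2, and control 4 (diamond) is the highest control for Dsp, Ppl, Pkp3, Pkp2 and Dsg2.

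The plakophilins are armadillo proteins that cluster the cadherins and recruit desmoplakin. Pkp3, the plakophilin found in most simple and stratified epithelia, was at 27.3, 27.3, 25.7 and 27.6 CPM in Max KO libraries 1 to 4 and at 12.2, 14.8, 14.6 and 18.0 CPM in controls 1 to 4. The Max KO values lay close together and the lowest was 1.43 times the highest control. The means were 27.0 ± 0.883 and 14.9 ± 2.39 CPM (SD, n = 4 each), and the log2 fold change was 0.86 (SE 0.11). Against controls 1 and 2 it was 1.00, and against controls 3 and 4 it was 0.71.

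Pkp2, the plakophilin also found in heart muscle, was at 44.5, 48.9, 49.9 and 46.1 CPM in the Max KO libraries and at 37.3, 38.2, 28.5 and 40.2 CPM in the controls. Its groups did not overlap either, but the gap was narrow, with the lowest Max KO value 1.11 times the highest control. The means were 47.3 ± 2.49 and 36.1 ± 5.14 CPM (SD, n = 4 each), or 0.39 on the log2 scale (SE 0.10), and the gene no longer passed the threshold without Max KO library 2 (0.38) or library 3 (0.36). The value was 0.32 against controls 1 and 2 and 0.45 against controls 3 and 4, both past the threshold. Of all tested genes, 44.6% and 20.7% passed in these fits. Pkp1, a plakophilin of stratified epithelia, had 3 reads in all 4 Max KO libraries together and 6 in the controls. At this depth no difference in Pkp1 could be detected.

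Plakoglobin (Jup), which sits in both desmosomes and adherens junctions, was at 382, 389, 390 and 433 CPM in Max KO libraries 1 to 4 and at 358, 371, 285 and 355 CPM in controls 1 to 4. The lowest Max KO value exceeded the highest control only 1.03-fold, and control 3 lay below the rest. The means were 399 ± 23.3 and 342 ± 38.6 CPM (SD, n = 4 each), and the log2 fold change of 0.22 (SE 0.09) did not pass the threshold. Control 3 moved this value most among single libraries, to 0.14 when it was left out. Jup was 0.13 higher on the log2 scale against controls 1 and 2 and 0.31 higher against controls 3 and 4, neither past the threshold.

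Among the desmosomal cadherins, Dsg2, the desmoglein of simple epithelia and heart, was at 126, 132, 124 and 124 CPM in the Max KO libraries and at 116, 108, 91.2 and 121 CPM in the controls. The groups were separated by a ratio of only 1.02 between the lowest Max KO value and the highest control. The means were 126 ± 4.00 and 109 ± 13.0 CPM (SD, n = 4 each), and the log2 fold change of 0.22 (SE 0.09) did not pass the threshold. It passed in the fit lacking control 4 (0.27) and in that of controls 1 and 2 alone (0.18, where 44.6% of all tested genes passed), and it was 0.14 without control 3 and 0.24 against controls 3 and 4, neither past the threshold. Reads of Dsp and Dsg2 could include those of an overlapping gene on the opposite strand (Gm10129 and Gm16090 in the GENCODE M21 annotation), since the counting is not stated to use strand.

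Dsc2, the desmocollin that pairs with Dsg2 in simple epithelia, was the only one of the 7 whose groups overlapped. It was at 70.0, 78.4, 78.2 and 75.2 CPM in the Max KO libraries and at 78.3, 66.3, 54.1 and 77.0 CPM in the controls, so that controls 1 and 4 lay inside the Max KO range. The means were 75.4 ± 3.91 and 68.9 ± 11.3 CPM (SD, n = 4 each), with a log2 fold change of 0.13 (SE 0.11), or 0.03 without control 3. It was 0.06 against controls 1 and 2 and 0.19 against controls 3 and 4. For 6 of the 7 members the Max KO values all lay above the controls. The same held for 13.4% of all tested genes, and 26.4% did not overlap in either direction.

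The cadherins of stratified epithelia were close to the limit of detection. Dsc3 had 2 reads in the Max KO and 5 in the control libraries together, and Dsg3 had 5 in each group. In the RefSeq gene order the desmosomal cadherin genes lie in 1 cluster, in the order Dsc3, Dsc2, Dsc1, Dsg1c, Dsg1a, Dsg1b, Dsg4, Dsg3 and Dsg2. Dsc2 had 9623 reads over the 8 libraries and Dsg2 had 15664, while each of the other 7 genes of the cluster had between 1 and 10. The 2 expressed cadherins were thus the last gene at one end of the cluster and the second gene at the other.

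**Figure D2:**
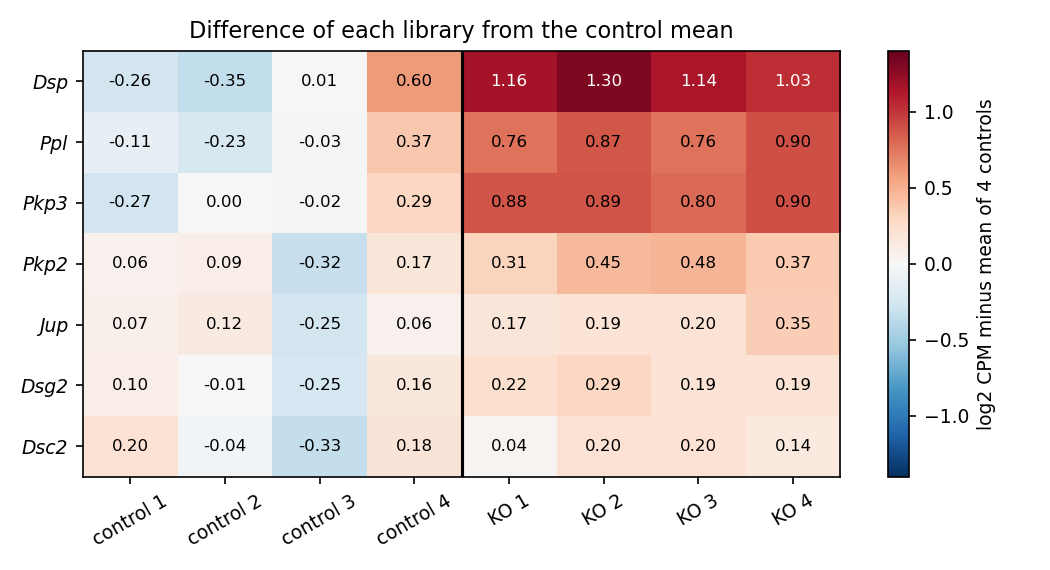
Difference of each library from the mean of the 4 controls, in log2 CPM, for the 7 desmosome genes (rows) in 4 control and 4 Max KO libraries (columns). Control 4 lies 0.60 above the control mean for Dsp, 0.37 for Ppl and 0.29 for Pkp3, between the other controls and the Max KO libraries. The Max KO libraries lie 0.76 to 1.30 above the control mean for these 3 genes.

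The control libraries varied more than the Max KO libraries in every one of the 7 genes. The coefficient of variation was 3.16% to 7.77% in the Max KO and 11.3% to 32.0% in the control libraries. Over all tested genes the medians were 7.62% and 12.4%, and 74.4% of genes varied more among the controls. Control 4 was the highest control for 5 of the 7 members (Dsp, Ppl, Pkp3, Pkp2 and Dsg2) against 26.8% of all tested genes, and control 3 was the lowest for 4 (Jup, Dsg2, Dsc2 and Pkp2) against 32.1%. Dsp stood 1.73 times and Ppl 1.41 times higher in control 4 than the mean of controls 1 to 3, but Jup only 1.05 times.

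Levels of different genes were compared as CPM per kb of the longest coding transcript. Jup was by far the most abundant member, at 124 ± 7.27 CPM per kb in the Max KO and 107 ± 12.03 in the control libraries (SD, n = 4 each). Dsp came next, at 48.1 ± 3.74 and 22.3 ± 7.13 CPM per kb. In the controls the values of Dsp (16.9 to 32.5) overlapped those of Dsg2 (15.8 to 21.0), with Dsp below Dsg2 in controls 1 and 2 and above it in controls 3 and 4, whereas in the Max KO libraries Dsp (44.0 to 53.0) lay clear of Dsg2 (21.4 to 22.9). Dsc2, Pkp2 and Ppl followed at 14.9 ± 2.43, 12.4 ± 1.76 and 8.38 ± 1.61 CPM per kb in the controls and at 16.3 ± 0.845, 16.2 ± 0.852 and 14.7 ± 0.742 in the Max KO libraries. The values of Dsc2 and Pkp2, and those of Pkp2 and Ppl, overlapped in both groups, and those of Dsg2 and Dsc2 overlapped in the controls. Within every single library, however, Dsc2 lay below Dsg2 and Pkp2 lay above Ppl. Dsc2 lay above Pkp2 in each control, but their order varied among the Max KO libraries. Pkp3 was the lowest of the 7, at 9.24 ± 0.303 and 5.10 ± 0.820 CPM per kb.

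**Figure D3:**
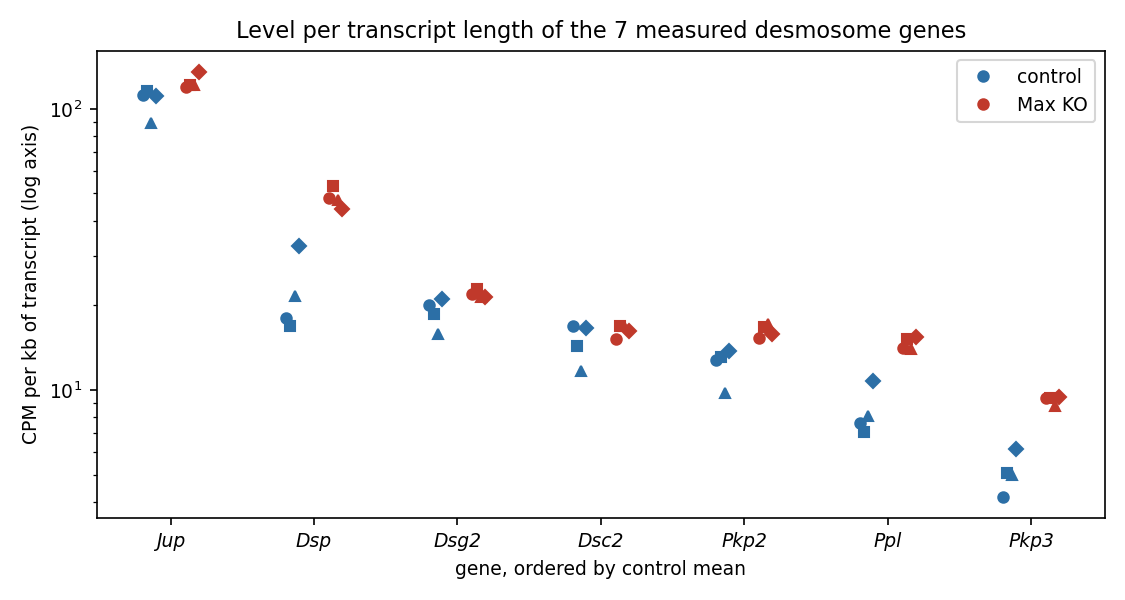
Level per transcript length (CPM per kb, log axis) of the 7 desmosome genes in each control and Max KO library, ordered by the control mean. Jup lies above 89 CPM per kb in every library, and Dsp overlaps Dsg2 in the controls but not in the Max KO libraries.

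Ratios within a library do not depend on library scaling. Per kb, Dsp stood at 0.325 to 0.437 of Jup in the Max KO libraries and at 0.146 to 0.293 of Jup in the controls, without overlap. Ppl over Jup (0.114 to 0.125 against 0.0611 to 0.0968) and Pkp3 over Jup (0.0700 to 0.0784 against 0.0373 to 0.0560) also separated the groups. Pkp2 over Jup did not, at 0.117 to 0.140 in the Max KO and 0.110 to 0.124 in the control libraries. Dsg2 over Jup had means of 0.177 ± 0.0132 and 0.177 ± 0.0117 (SD, n = 4 each), and Dsc2 over Dsg2 was 0.743 ± 0.0400 and 0.785 ± 0.0440, both with overlapping values too. Of the summed level per kb of the 10 genes, Dsp held 19.2% in the Max KO and 11.8% in the control libraries, and Jup held 49.6% and 56.6%.

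Of 11 further genes of desmosomes or their associated proteins, 4 were tested, 2 rose and none fell. Of all tested genes, 10.9% rose and 12.2% fell. This list and those of partners and regulators below were chosen with earlier results of these data known, so nothing is read from their counts. Evpl, which encodes envoplakin, the partner of periplakin, was at 128, 130.5, 125 and 143 CPM in Max KO libraries 1 to 4 and at 82.0, 85.7, 98.0 and 117 CPM in controls 1 to 4. The groups did not overlap and control 4 was again the highest control. Evpl rose by 0.46 on the log2 scale (SE 0.11, edgeR adjusted p = 0.00922), but by 0.28 with only controls 3 and 4 kept, which ended the call (adjusted p = 0.0574). Pof1b, which encodes an actin-binding protein found at junctions, was at 14.1 ± 2.14 CPM in the Max KO and 8.50 ± 1.97 CPM in the control libraries (SD, n = 4 each) and rose by 0.72 on the log2 scale (SE 0.17, edgeR adjusted p = 0.00886). Pkp4, a plakophilin relative found at adherens junctions too, was at 282 ± 7.96 and 288 ± 9.19 CPM (log2 fold change -0.03, SE 0.07). Perp, a p53-responsive desmosome protein gene, was at 1.06 ± 0.513 and 1.06 ± 0.199 CPM (-0.03, SE 0.34). The 7 untested genes were Dsc1, Dsg1a, Dsg1b, Dsg1c, Dsg4, Cdsn and Kazn.

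Of 19 genes for adherens junction proteins and the intermediate filaments that desmosomes anchor, 11 were tested, 7 rose and 1 fell (median log2 fold change 0.29). The shares over all tested genes were 10.9% and 12.2%. Of the keratin genes of simple epithelium, Krt7, Krt8 and Krt18 rose and Krt19 and Krt20 were too low to be tested. Krt18 was at 634, 579, 607 and 583 CPM in the Max KO libraries and at 357, 359, 360 and 384 CPM in the controls. The groups were tight and did not overlap, and the rise was 0.72 on the log2 scale (SE 0.07, edgeR adjusted p = 6.02e-05). Its partner Krt8 rose by 0.52 (SE 0.10, edgeR adjusted p = 0.00378; 0.36 against controls 1 and 2 and 0.68 against controls 3 and 4) and Krt7 by 0.39 (SE 0.08, 0.00395). The keratins of stratified epithelium, Krt5, Krt14 and Krt17, were not tested, and Krt5 was at 0 in every library.

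Among the classical cadherins, P-cadherin (Cdh3) was at 7.13 ± 1.13 CPM in the Max KO and 3.94 ± 0.556 CPM in the control libraries (SD, n = 4 each), a rise of 0.85 on the log2 scale (SE 0.17, edgeR adjusted p = 0.00341), and E-cadherin (Cdh1) rose by 0.53 (SE 0.11, 0.00444). N-cadherin (Cdh2) did not pass the threshold (log2 fold change -0.11, SE 0.07, edgeR adjusted p = 0.309). Its means were 188 ± 11.1 CPM in the Max KO and 203 ± 7.60 CPM in the control libraries. The catenin genes Ctnna1 (0.27) and Ctnnd1 (0.29) rose by small amounts, while Arvcf (0.04) and Vcl (-0.16) did not pass the threshold. Beta-catenin (Ctnnb1), the closest relative of plakoglobin, was at 857 ± 53.1 CPM in the Max KO and 1085 ± 140.5 CPM in the control libraries (SD, n = 4 each) and fell by 0.34 on the log2 scale (SE 0.10, edgeR adjusted p = 0.0308). The call of Ctnnd1 ended without Max KO library 2 or 3 or control 2 (adjusted p up to 0.0606), and that of Ctnnb1 ended without any 1 Max KO library, without control 1 or 2 (adjusted p up to 0.0934) and in the fit of controls 3 and 4 alone (-0.19, 0.203).

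Of 22 genes for transcription factors of epithelial cells, their repressors and enzymes that act on desmosomal proteins, 19 were tested, 6 rose and 4 fell (median log2 fold change 0.11). Again, 10.9% of all tested genes rose and 12.2% fell. The epithelial factor gene Elf3 was at 50.6, 47.6, 49.1 and 53.0 CPM in the Max KO libraries and at 27.8, 26.3, 28.5 and 26.5 CPM in the controls, with tight groups that did not overlap (log2 fold change 0.88, SE 0.07, edgeR adjusted p = 2.63e-05). The epithelial splicing regulator gene Esrp1 rose by 0.83 (SE 0.09, 9.44e-05) and the repressor gene Ovol1 by 0.95 (SE 0.11, 0.000122). Grhl2 (0.89) and Ehf (0.99), which encode further epithelial transcription factors, rose as well, and the call of Ehf ended when no filter on low counts was used (adjusted p = 0.0530). Set against controls 1 and 2 alone, Ehf had a log2 difference of 0.59, compared with 1.57 against controls 3 and 4. Grhl1 (0.12, edgeR adjusted p = 0.434), Ovol2 (0.17, 0.329) and Klf5 (0.07, 0.721), also factors of epithelial cells, did not pass the threshold. Klf4, a further factor of epithelial cells, went the other way and fell (-1.04, edgeR adjusted p = 0.0186), with the limits given below.

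Of the repressors of epithelial genes Zeb1, Zeb2, Snai1 and Snai2, 3 fell and Snai1 did not pass the threshold. Zeb1 was at 19.2, 22.7, 27.9 and 28.1 CPM in the Max KO libraries and at 53.9, 57.6, 55.0 and 50.3 CPM in the controls, with no overlap and a log2 difference of -1.15 (SE 0.12, edgeR adjusted p = 7.27e-05). Snai2 (-1.09) and Zeb2 (-0.68) fell too, from low levels, whereas Snai1 was at 1.22 ± 0.154 and 1.14 ± 0.479 CPM. Klf4, listed as a factor of epithelial cells and not as one of these repressors, fell by 1.04 on the log2 scale. Its call ended without Max KO library 2 or 3 or control 2 (adjusted p up to 0.0600). It also ended in the fit of controls 3 and 4 alone (-0.55, 0.171). The enzymes that act on desmosomal proteins did not pass the threshold. They were the kinases Ripk4 and Prkca, the sheddases Adam10 and Adam17, which cut cadherins at the cell surface, and the palmitoyltransferase Zdhhc5, with log2 fold changes of -0.20 to 0.26.

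**Figure D4:**
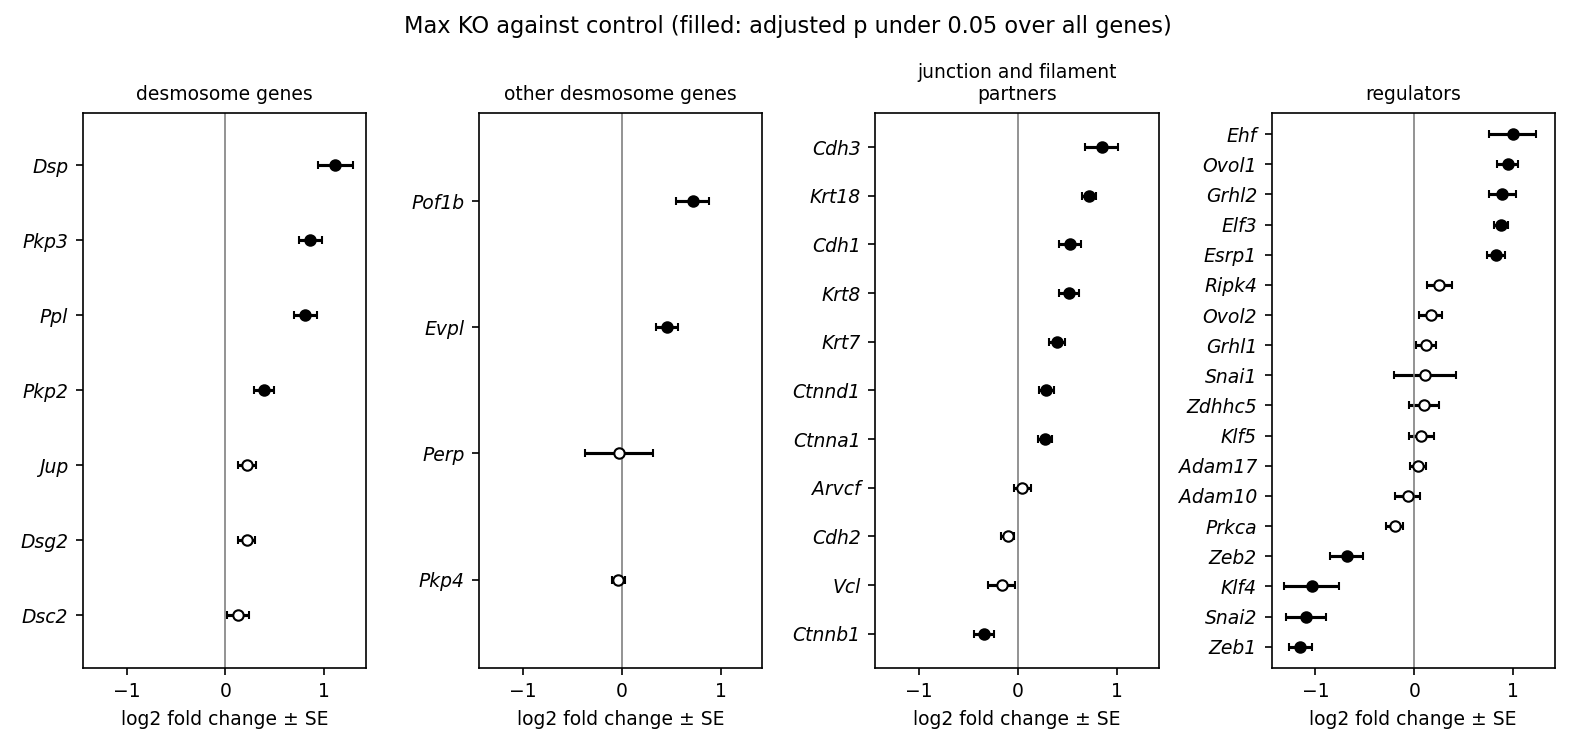
Log2 fold change of Max KO against control with its SE (x axes) for the 7 desmosome genes and for the tested genes of the 3 other lists, of which 1 regulator is not drawn. Filled points passed an adjusted p under 0.05 over all tested genes, and the points range from -1.15 for Zeb1 to 1.11 for Dsp.

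Markers of other cell types were examined beside these results. In bulk RNA more cells of one type and more RNA per cell cannot be told apart. Of 9 squamous and basal epithelial markers, 3 were tested, 1 rose and none fell, and their summed level was 91.4 to 122 CPM in the Max KO and 79.1 to 108 CPM in the control libraries. Nearly all of that sum came from the 3 tested genes. Sprr1a rose, from 20.5 ± 2.71 CPM in the control to 41.5 ± 5.79 CPM in the Max KO libraries, while Lor was at 57.4 ± 6.64 CPM in the Max KO and 62.9 ± 15.3 CPM in the control libraries and Krt10 at 6.94 ± 0.775 and 8.003 ± 1.59 CPM (SD, n = 4 each), neither past the threshold. The other 6 were at or near 0, among them the basal cell genes Krt5 with no read, Krt14 with 1 and Trp63 with 2 in all 8 libraries. Of 6 fibroblast markers, 2 were tested, Dcn rose and Pdgfra fell, and the sum was 49.3 to 65.7 against 23.9 to 44.5 CPM. Most of it was Dcn, while Lum had no read and Col3a1 had 2. Of 6 markers of other lung epithelium, 4 were tested, 1 rose and none fell, with sums of 11.1 to 12.6 against 10.4 to 13.4 CPM. Haematopoietic markers summed to at most 5.49 CPM and endothelial markers to at most 1.39 CPM, and of these 7 genes 2 were tested and neither passed the threshold. The part of Sprr1a, of the other lung epithelial cells, of Dcn and of the share of reads outside exons in these results was not tested.

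The 5 tested genes whose profile over the 8 libraries was most like the median profile of the 7 members were Agtpbp1, Rab3gap2, Sike1, Adssl1 and Arfgap3. Their root mean square difference from that profile was 0.0532 to 0.0582 on the log2 scale. Each lay higher in all 4 Max KO libraries than in all 4 controls, as their selection makes likely, by 0.31 to 0.39 on the log2 scale. Agtpbp1, for example, was at 102, 115, 110 and 102 CPM in the Max KO and at 84.9, 81.4, 69.2 and 91.4 CPM in the control libraries, where control 3 was the lowest and control 4 the highest.

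In all 18 alternatives to the reported settings, Dsp, Pkp3 and Ppl passed the threshold and all 7 members kept a positive difference. Pkp2 passed in 16, Dsg2 in 2 and Jup and Dsc2 in none. Of all tested genes, 15.4% (no filter on low counts) to 44.6% (only controls 1 and 2 kept) passed in these alternatives. The fits share their libraries and the members were chosen on this difference, so the passes describe dependence on settings and add no independent support.

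**Figure D5:**
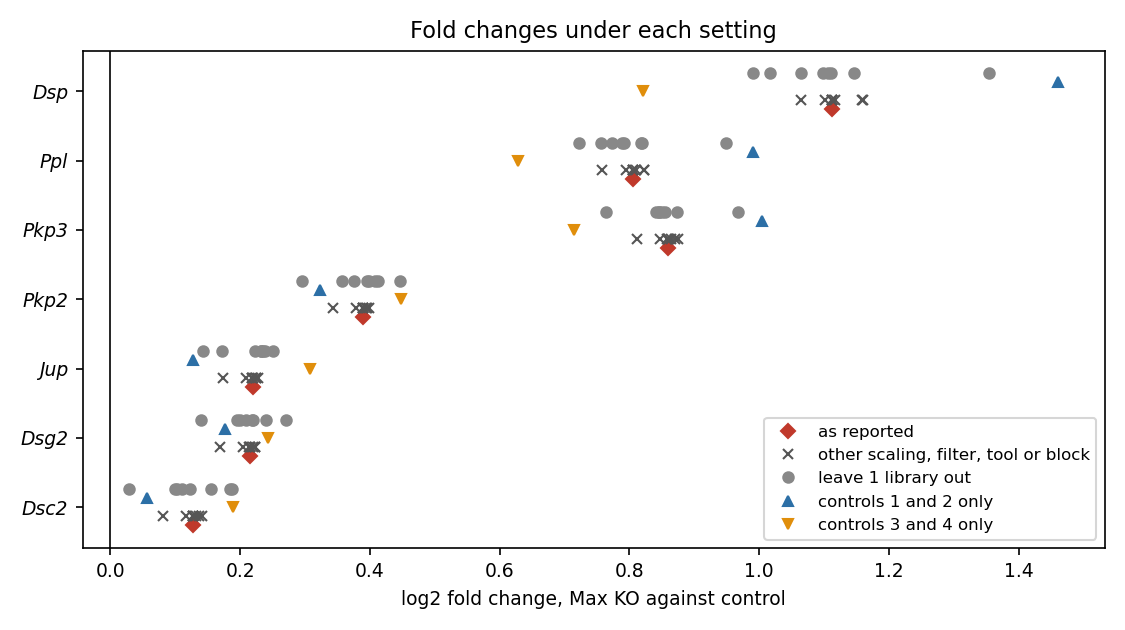
Log2 fold change of Max KO against control (x axis) for each of the 7 desmosome genes (y axis) as reported, with each library left out, with only 2 of the controls kept, and with other scaling, filters, tools or a replicate block. Dsp spans 0.82 to 1.46 and Dsc2 spans 0.03 to 0.19, and no value falls below 0.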

How the data were processed

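Per the submitters' processing notes, the authors made the deposited read counts per gene with bcl2fastq 1.8.4, TopHat2 2.0.12 (mm9) and HTSeq 0.6.1. The gene annotation of the counting is not given in the sources used here, nor is its strand setting. HTSeq's summary rows were left out of library sizes. Genes were filtered with filterByExpr (13358 of 23284 kept) and scaled with TMM factors, which were also applied to genes under the filter. The test was edgeR 4.0.16 in R 4.3.3 (quasi-likelihood F test, robust, group as the only term, Benjamini-Hochberg adjustment over all tested genes), and each SE is the log2 fold change over the square root of F. Lengths are those of the longest coding transcript in GENCODE M21, since the RefSeq table planned for this gives gene spans.

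The members, the lists and the split of the controls were chosen with earlier results of these data known. Named genes are the 10 members, up to 4 called genes of each other list by smallest p, the uncalled tested genes of the other desmosome list, and the 5 most similar profiles (log2 CPM, prior count 2, centred). Cdh1, Cdh2, Ctnna1, Ctnnd1, Ctnnb1, Arvcf, Vcl, Grhl2, Ehf, Snai1, Snai2, Zeb2, Klf4, Ripk4, Prkca, Adam10, Adam17, Zdhhc5, Grhl1, Ovol2, Klf5, Chgb, Resp18, Uchl1, Lor, Krt10, Dcn, Pdgfra, Sprr1a and the untested keratins were chosen after their values were seen. Of the regulators, 1 gene is counted with its list but not reported here. Libraries of a group differed by more than counting noise (chi-square of 3.86 to 37.7 per degree of freedom), so none was a copy. The 18 alternatives were scaling by RLE or upper quartile, no filter or one of 1 CPM in 4 libraries, DESeq2 1.42.0, limma-voom (limma 3.58.1), non-robust estimation, a replicate term, omission of each library, and controls 1 and 2 or 3 and 4 alone.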

Additional observations from a re-analysis of the deposited data

Results flagged for a closer look

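Within the Max KO group, 1 library stood apart from the other 3 for Jup and for Pkp3. Jup was at 433.3 CPM in Max KO library 4 against 382 to 390 CPM in the others, a gap of 0.852 of the group's range. Pkp3 was at 25.68 CPM in Max KO library 3 against 27.3 to 27.6 CPM, a gap of 0.830 of a narrow range. Both gaps exceeded Dixon's critical value for 4 libraries, which chance passes in about 1 of 20 groups, and 14 combinations of gene and group were examined. The gap of control 4 in Dsp was 0.697 of the range, under that value.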

How the results depend on the processing

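Equal replicate numbers did not pair the libraries: deviations from the group means of same-numbered libraries correlated at -0.20 to 0.00, and none of the 4 pairs exceeded 0.1, nor did any library correlate best with its own number. With the replicate block 2532 genes passed the threshold instead of 3084, the members still gave 4, and Ctnnb1 no longer passed (adjusted p = 0.0647). With only controls 1 and 2 kept, 6068 genes passed in place of 3084. With only controls 3 and 4 kept, 1 of the other desmosome genes passed in place of 2. Leaving out each library in turn gave 2102 to 3743 genes in all, 3 to 5 members, 2 other desmosome genes in every fit, 6 to 9 junction and filament partners and 9 or 10 regulators. Over all alternatives, 6 to 10 partners and 9 to 11 regulators passed. Depth limits Dsc3, Dsg3 and Pkp1, with 7, 10 and 9 reads in all libraries together.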

Other observations

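Sprr1a, which encodes a small proline-rich protein of the cornified envelope, was at 39.2, 35.4, 42.1 and 49.1 CPM in the Max KO libraries and at 20.7, 16.8, 23.2 and 21.4 CPM in the controls. It rose by 1.02 on the log2 scale (SE 0.12, edgeR adjusted p = 0.000185) and kept its call in all 18 alternatives. Krt19, another keratin gene of simple epithelium, was too low to be tested, and its values lay lower in the Max KO (0 to 0.136 CPM) than in the control libraries (0.252 to 0.512 CPM).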
